A study of Mus musculus with 9 samples.

Results

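The genes described here are 9 that carry interferon signals from the cell surface to the nucleus: the receptor chains Ifnar1, Ifnar2, Ifngr1 and Ifngr2, the signal transducer Stat2, and the interferon regulatory factors Irf1, Irf3, Irf7 and Irf9. They were taken by gene symbol, as array probe sets annotated with exactly 1 symbol. All 9 were measured, out of 19938 genes in all, and for Irf1, the member with more than 1 probe set, the brighter was used. The arrays, Affymetrix Mouse Gene 1.0 ST, number 9, and each holds RNA of a separate preparation of skin cells from mice at postnatal day 4, per the labels. The 4 SKP arrays (replicates 3, 4, 5 and 6) hold skin-derived precursor cells, which grow in culture as floating spherical colonies and were collected at primary passage; the labels give neither strain nor genotype for these mice. The 5 sorted arrays (replicates 2, 16, 17, 18 and 20) hold cells from the skin of Sox2:EGFP animals, whose green fluorescent reporter marks Sox2 expression, sorted directly from dissociated back skin into RNAlater as EGFP-positive and CD34-negative. The comparison belongs to the question of how SKPs relate to precursor cells of the hair follicle, which the series title raises. Culture, sorting and cell choice differ together between the groups and cannot be told apart.

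Interferons are secreted proteins that cells use to signal viral infection and inflammation. Type I interferons bind the receptor made of Ifnar1 and Ifnar2, whose Janus kinases phosphorylate Stat2. It joins Irf9 in a complex called ISGF3, which binds the interferon-stimulated response element in antiviral genes. Interferon-gamma binds Ifngr1 and Ifngr2, whose signal reaches gamma-activated sites in the genome, Irf1 being a classic target. Irf3 and Irf7 are activated by nucleic acid sensors and switch on the interferon genes themselves, and Irf7 is itself induced by ISGF3.

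Values are log2 levels summarised by RMA, so that 1 unit is a 2-fold difference. Levels are compared between arrays for a gene and not between genes. Array medians over the genes tested lay between 7.15 and 7.30, and the number of arrays limits the precision. "Higher" and "lower" are used of genes called at an adjusted p under 0.05 (limma, Benjamini-Hochberg over all 19938 genes). The labels were checked on marker lists. Of 15 dermal papilla markers 14 were lower in SKPs and Crabp1 was higher, with Sox2 at 6.16 ± 0.27 (SD, n = 4) against 8.69 ± 0.41 (n = 5). Sorted replicates 2 and 20 stand apart, with papilla list means of 10.64 and 10.002 where the remaining sorted arrays had 11.74 to 11.91, and results are also given without them. The sorted arrays also held higher levels of 11 of 11 keratinocyte, 6 of 8 melanocyte and 5 of 5 Schwann cell markers. Mitf, a melanocyte marker, was higher in SKPs. The SKP list had 2 of 10 markers higher (Fn1 and Twist2) and 2 lower (Ngfr and Dhh). Endothelial markers had 2 of 6 lower (Kdr and Erg), and 0 of 5 mast cell markers were called (limma; Ms4a2 had an unadjusted p under 0.05). Both of these lists had their highest means on sorted replicates 2 and 20. Without those arrays, 3 of 5 mast cell and 2 of 6 endothelial markers were higher in SKPs, and 2 of 6 endothelial markers were lower.

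Of the 9 genes, 6 were higher in SKPs, 1 was lower and 2 were not called. Over all genes 37.0% were called, 20.2% higher and 16.9% lower, so that 54.4% of calls were higher, and 64.4% with arrays centred on their medians. Irf7, Stat2, Irf9, Ifngr1 and Ifngr2 were higher by at least 2-fold, and Irf1 was lower by at least 2-fold, against 5.46% and 6.25% of all genes. In 8 of the 9 genes every SKP array lay above or below every sorted array, against 34.0% of all genes. The exception was Ifnar2. The median log2 fold change was 1.40 over the 9 genes and 0.07 over all genes. Without sorted replicates 2 and 20 there were again 6 higher and 1 lower, when 25.4% of all genes were higher, 21.1% lower and 46.5% called in all.

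**Figure D1:**
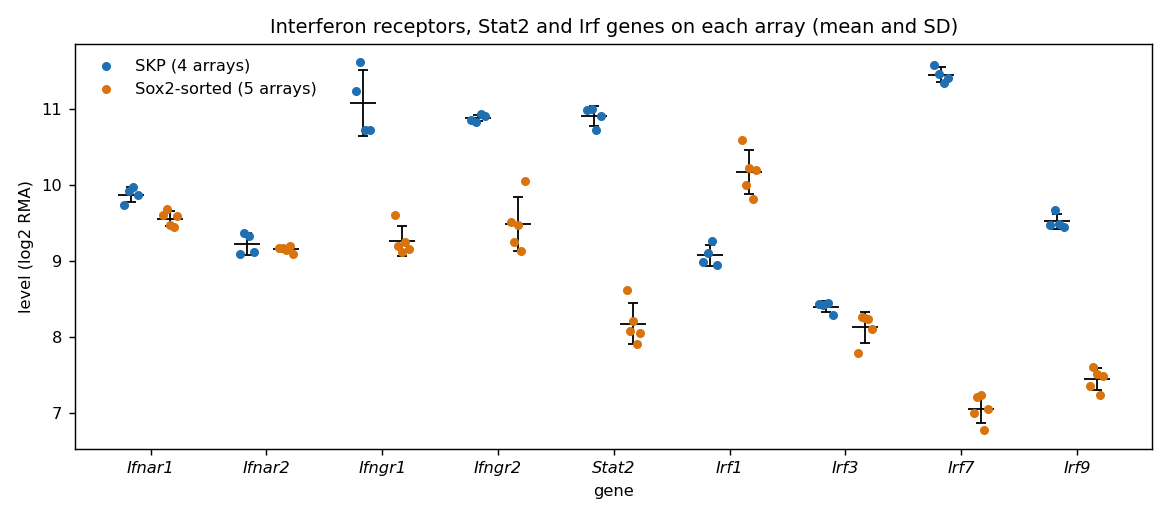
Level of each gene on every array (vertical axis, log2 RMA; horizontal axis, gene), with SKP arrays in blue, sorted arrays in orange, and black bars for the group mean and SD. The groups are widest apart for Irf7 (11.45 against 7.06), overlap for Ifnar2, and have the opposite order for Irf1 (9.08 against 10.17).

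The type I receptor chains differed little between the groups. Ifnar1, a signalling chain of that receptor, was at 9.74, 9.92, 9.97 and 9.87 on SKP replicates 3, 4, 5 and 6 and at 9.60, 9.68, 9.48, 9.45 and 9.59 on sorted replicates 2, 16, 17, 18 and 20. The groups did not overlap, although the highest sorted and lowest SKP values were 0.06 apart on the log2 scale. Ifnar1 was 1.24-fold higher, with a log2 fold change of 0.31 (SE 0.08, limma adjusted p = 0.0115), and was not called at an adjusted p under 0.01. Ifnar2, the other chain, was at 9.10, 9.37, 9.33 and 9.12 in SKPs and at 9.17, 9.17, 9.15, 9.20 and 9.09 in the sorted cells. SKP replicates 3 and 6 lay among the sorted arrays. Its log2 fold change was 0.07 (adjusted p = 0.523), with a 95% confidence interval from -0.11 to 0.25, which leaves out a 2-fold difference in either direction.

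Both chains of the interferon-gamma receptor were higher in SKPs. Ifngr1, the ligand-binding chain, was at 11.24, 11.62, 10.73 and 10.72 on SKP replicates 3, 4, 5 and 6. On sorted replicates 2, 16, 17, 18 and 20 it was at 9.62, 9.20, 9.12, 9.26 and 9.16. SKP replicates 3 and 4 were the highest and sorted replicate 2 stood above the other sorted arrays, but the lowest SKP value lay 1.11 above the highest sorted value. The difference was 3.50-fold, with a log2 fold change of 1.81 (SE 0.19, adjusted p = 5.14e-05), and 3.70-fold without sorted replicates 2 and 20. Ifngr2, the chain that brings in Jak2, was at 10.86, 10.83, 10.93 and 10.91 in SKPs, a spread of 0.04 (SD). In the sorted cells it was at 9.51, 9.25, 9.48, 9.13 and 10.05, with replicate 20 the highest. That array also had the highest keratinocyte list mean (11.62, against 9.79 to 10.12 on the other sorted arrays and 6.55 to 6.88 in SKPs). Among the sorted arrays it was likewise highest for the melanocyte (8.96), endothelial (7.79), mast cell (7.26) and plasmacytoid dendritic cell (7.56) lists. Its papilla list mean was the lowest of them (10.002). The part of these cell types in this Ifngr2 value was not tested. The difference was 2.64-fold, with a log2 fold change of 1.40 (SE 0.16, adjusted p = 9.75e-05), and 3.03-fold without sorted replicates 2 and 20. The intervals of Ifngr1 (1.38 to 2.23) and Ifngr2 (1.03 to 1.76) lay above that of Ifnar1 (0.13 to 0.50); the difference between the receptors was not itself tested. In the mouse genome Ifnar2, Il10rb, Ifnar1 and Ifngr2 lie next to one another in this order on chromosome 16 (RefSeq, GRCm38.p6), and Ifngr1 lies on chromosome 10.

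Stat2 and Irf9, both parts of ISGF3, were both higher in SKPs. Stat2 was at 10.99, 11.01, 10.72 and 10.91 on SKP replicates 3, 4, 5 and 6 and at 8.62, 8.09, 8.22, 7.92 and 8.06 on sorted replicates 2, 16, 17, 18 and 20. Sorted replicate 2 was the highest of its group and still far below every SKP array. The difference was 6.62-fold, with a log2 fold change of 2.73 (SE 0.14, adjusted p = 4.36e-07). Irf9, the DNA-binding subunit, was at 9.48, 9.68, 9.49 and 9.45 in SKPs and at 7.37, 7.61, 7.52, 7.24 and 7.50 in the sorted cells. These groups were also well apart, with a spread of 0.10 (SD) in SKPs and 0.15 in the sorted cells. Irf9 was 4.22-fold higher, with a log2 fold change of 2.08 (SE 0.09, adjusted p = 1.97e-07). Without sorted replicates 2 and 20 the folds were 7.12 for Stat2 and 4.19 for Irf9.

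The sequence before the Stat2 start is shown because it holds letters of the kind that ISGF3 is known to bind. The motif searched for the interferon-stimulated response element was a pair of GAAA words with any 2 bases between them, on both strands, in the 250 bases before each RefSeq start. The stretch is chr10:128270248-128270497, plus strand, GRCm38.p6, with the match in capitals (on the opposite strand it reads as the motif), ending 212 bases before the start:
Stat2: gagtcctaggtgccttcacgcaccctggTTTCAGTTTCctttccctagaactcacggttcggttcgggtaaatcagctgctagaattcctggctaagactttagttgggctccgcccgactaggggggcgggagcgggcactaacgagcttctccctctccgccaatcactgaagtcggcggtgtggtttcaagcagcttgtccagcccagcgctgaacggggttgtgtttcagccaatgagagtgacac
For comparison, 4 type I target genes (Bst2, Ifit1, Ifit3 and Oas1a) and the interferon-gamma targets B2m and Gbp3 hold the same 10 letters on either strand, and 3 of them are shown, at chr19:34640792-34640825 and chr19:34583395-34583428 on the plus strand and chr8:71537575-71537608 on the minus strand:
Ifit1: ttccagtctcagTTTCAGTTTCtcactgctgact
Ifit3: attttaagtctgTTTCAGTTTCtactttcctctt
Bst2: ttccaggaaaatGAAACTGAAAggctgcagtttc
The motif was found for 1 of the 9 genes, Stat2, for 5 of the 13 type I target genes with a promoter in the table (Bst2, Ifit1, Ifit3, Oas1a and Rsad2), for 5 of the 13 interferon-gamma and Irf1 targets with one (B2m, Cxcl10, Gbp3, Gbp5 and Irgm1) and for 3.46% of all 27025 genes. The exact word GAAACTGAAA, taken from the Stat2 match after it was seen, was found for 0.233% of genes. Irf7, Irf9, Irf3, Irf1 and the receptor genes had no match, which says no more than that these letters are not in these windows.

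Irf7 showed the largest difference of the 9 genes. It was at 11.58, 11.47, 11.35 and 11.41 on SKP replicates 3, 4, 5 and 6 and at 7.005, 7.21, 7.24, 6.78 and 7.05 on sorted replicates 2, 16, 17, 18 and 20. The groups were 4.11 apart on the log2 scale at their nearest values, and the range within a group was 0.23 in SKPs and 0.46 in the sorted cells. The difference was 21.1-fold, with a log2 fold change of 4.40 (SE 0.11, 95% confidence interval 4.16 to 4.63, adjusted p = 6.52e-09), and 20.8-fold without sorted replicates 2 and 20. Irf3, the relative that is made without stimulation and is activated by phosphorylation, was at 8.44, 8.43, 8.45 and 8.30 in SKPs and at 7.79, 8.27, 8.25, 8.24 and 8.12 in the sorted cells. The groups did not overlap, but sorted replicates 16, 17 and 18 lay just below SKP replicate 6, the nearest by 0.03. Irf3 had a log2 fold change of 0.27 (SE 0.11, adjusted p = 0.0755) and was not called. It was called after quantile normalization (0.31, adjusted p = 0.0448) and after centring on array medians (0.34, adjusted p = 0.0229), and without sorted replicates 2 and 20 its log2 fold change was 0.15 (adjusted p = 0.109). Over all alternatives its adjusted p ran from 0.0229 to 0.15.

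**Figure D2:**
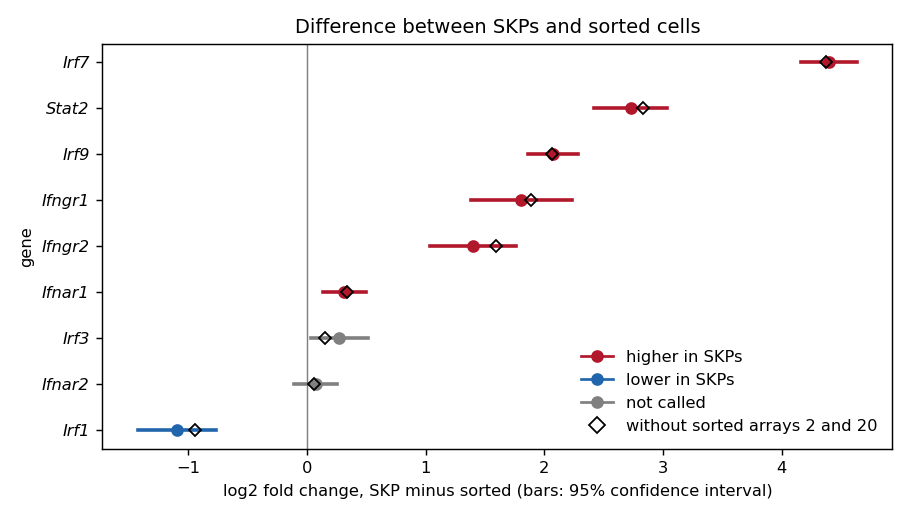
Log2 fold change of each gene, SKP minus sorted (horizontal axis), with its 95% confidence interval as a bar; red is higher and blue lower in SKPs, grey is not called, and open diamonds are the values without sorted arrays 2 and 20. Irf7 is at 4.40, Irf1 is on the opposite side of 0 at -1.09, and the diamonds lie within the bars.

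Irf1 was the member with the opposite direction. It was at 8.99, 9.11, 9.27 and 8.95 on SKP replicates 3, 4, 5 and 6 and at 10.60, 10.01, 10.23, 9.82 and 10.19 on sorted replicates 2, 16, 17, 18 and 20. Every sorted array lay above every SKP array, with sorted replicate 2 the highest. Irf1 was 2.13-fold lower in SKPs, with a log2 fold change of -1.09 (SE 0.15, adjusted p = 0.000252), and 1.92-fold lower without sorted replicates 2 and 20. A dimmer probe set for Irf1 was at 6.55 to 6.78 in SKPs and at 6.57 to 7.18 in the sorted cells, a log2 difference of -0.18 (adjusted p = 0.337 over all probe sets), and was not called. As a mean over both probe sets Irf1 had a log2 fold change of -0.64 (adjusted p = 0.000211), still lower but by less than 2-fold. The stretch before an annotated Irf1 start is shown because it holds the letters of a gamma-activated site motif. The window of the other annotated Irf1 start had no match to either motif. The motif searched was TTCNNNGAA, which reads alike on both strands, and the match, in capitals, ends 81 bases before the start at chr11:53769764-53770013, plus strand, GRCm38.p6:
Irf1: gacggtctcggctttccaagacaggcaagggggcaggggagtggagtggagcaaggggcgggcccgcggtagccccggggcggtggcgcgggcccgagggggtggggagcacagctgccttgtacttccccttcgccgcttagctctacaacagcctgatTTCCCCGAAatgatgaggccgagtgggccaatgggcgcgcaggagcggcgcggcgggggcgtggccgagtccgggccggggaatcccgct
Ifnar2 also had a match, as did 4 of the 13 type I targets, 2 of the 13 interferon-gamma and Irf1 targets and 8.13% of all genes. None of the 9 genes had matches to both motifs.

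Irf1 is also an immediate early gene, and other genes of that kind were lower in SKPs with it. In the immediate early list 17 of 20 genes were lower, against 16.9% of all genes, with a median log2 fold change of -1.88. Fos, a subunit of the AP-1 factor, was 22.5-fold lower. Egr3, Ier3 and Myc were not called (log2 fold changes of -0.29, -0.52 and -0.19). Egr3 was called without SKP replicate 3 or 4 (adjusted p = 0.0386 and 0.0309), with array weights, and with low genes left out. Ier3 was called without SKP replicate 5 (adjusted p = 0.0458), with array weights, and without sorted replicates 2 and 20. Over all alternatives the adjusted p ran from 0.0079 to 0.143 for Egr3 and from 0.00312 to 0.372 for Ier3. The list mean was 8.62, 8.41, 8.83 and 8.68 on SKP replicates 3, 4, 5 and 6 and 10.78, 10.58, 10.53, 10.37 and 10.73 on sorted replicates 2, 16, 17, 18 and 20. Sorted replicate 2 was the highest and replicate 18 the lowest of the sorted arrays both for Irf1 and for the list. Sorted replicates 16, 17 and 20 had a different order in Irf1 and in the list. In SKPs replicate 5 was the highest for both, but the lowest was replicate 4 for the list and replicate 6 for Irf1. The part of the immediate early genes in the Irf1 difference was not tested.

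Myeloid cells and plasmacytoid dendritic cells are known to express Irf7. Myeloid markers were also higher in SKPs, in 13 of 15 cases (all but Aif1 and Cd14), against 20.2% of all genes. The mean of the 15 markers was 7.43, 6.90, 8.46 and 7.81 on SKP replicates 3, 4, 5 and 6 and 5.96 to 6.24 in the sorted cells. Among the defining markers, Ptprc was at 6.73 ± 0.50 (SD, n = 4) against 5.65 ± 0.17 (n = 5) and Lyz2 at 10.69 ± 1.00 against 6.08 ± 0.62. From replicate 4, where the marker mean was lowest, to replicate 5, where it was highest, the 6 genes higher in SKPs did not move one way. Irf7 (11.47 and 11.35), Stat2 (11.01 and 10.72), Irf9 (9.68 and 9.49) and Ifngr1 (11.62 and 10.73) were lower on replicate 5, and Ifngr2 (10.83 and 10.93) and Ifnar1 (9.92 and 9.97) were higher there. The mean of the type I target genes was 9.77, 9.79, 9.995 and 9.901 on SKP replicates 3, 4, 5 and 6. That mean was also highest on replicate 5, but it was lowest on replicate 3. The part of myeloid cells in these differences was not tested. Markers of lymphoid cells had 2 of 9 higher (Cd79b and Ncr1) and Cd3g lower. Of 4 plasmacytoid dendritic cell markers, Cox6a2 was higher, with overlapping groups, and was not called without sorted replicates 2 and 20. Ly6d, which keratinocytes also express, was lower. The defining gene Siglech had a log2 fold change of -0.02 (limma adjusted p = 0.889) and Ccr9 of -0.05 (adjusted p = 0.696). In samples of many cells, fewer cells of a type and less RNA per cell cannot be told apart.

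**Figure D3:**
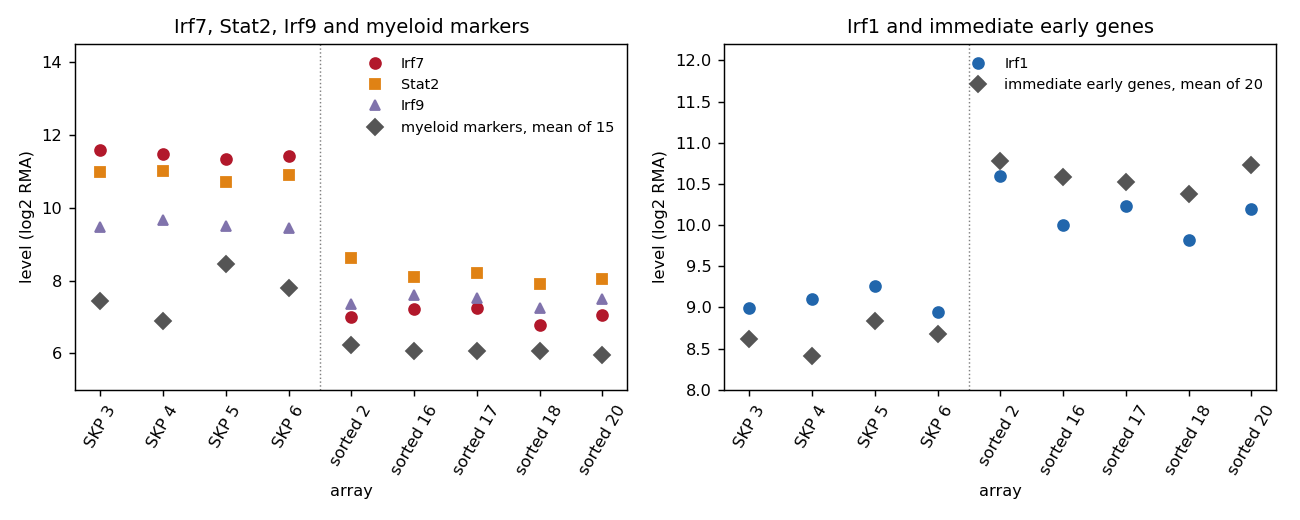
Level on each array (log2 RMA; horizontal axis, array, SKPs left of the dotted line) of Irf7, Stat2 and Irf9 with the mean of 15 myeloid markers (left) and of Irf1 with the mean of 20 immediate early genes (right). The myeloid mean runs from 6.90 to 8.46 and Irf7 from 11.35 to 11.58 over the SKP arrays, and both are lower on the sorted arrays, whereas Irf1 and the immediate early mean are both higher on the sorted arrays.

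The interferon genes themselves were not called. Of 16 measured ligand genes none passed the threshold (limma; Ifna14 had an unadjusted p under 0.05), with a median log2 fold change of 0.07. Ifnb1, the main type I interferon of fibroblasts, was at 4.86 ± 0.13 (SD, n = 4) in SKPs and 4.65 ± 0.18 (n = 5) in the sorted cells, a log2 difference of 0.21 (adjusted p = 0.158), which was called with array weights (0.35, adjusted p = 0.0172). Ifnz differed by -0.46 on the log2 scale (adjusted p = 0.247), and by -0.69 (adjusted p = 0.0192) without sorted replicate 20, and over all alternatives its adjusted p ran from 0.000172 to 0.443. Many of these ligands are close in sequence, 12 of the 16 had a mean level among the lowest 33.3% of genes (log2 under 6.31), and detection p-values were not used, so whether they were expressed is not known. Of 5 further receptor chains and Janus kinases, Tyk2, the kinase bound to Ifnar1, was 1.50-fold higher (adjusted p = 0.0174) and Il10rb, a chain of the type III receptor, 1.32-fold higher (adjusted p = 0.00908). Tyk2 lost its call without SKP replicate 3 (adjusted p = 0.0545). Jak1 (0.35, adjusted p = 0.0501) and Jak2 (-0.28, adjusted p = 0.105) were not called, and without sorted replicate 20 both were (0.39 and -0.37). Jak1 was also called without SKP replicate 6 (0.41) or sorted replicate 2 (0.41), and in 9 of 17 alternatives in all. Among these were median centring, averaging probe sets and array weights. Its adjusted p over all alternatives ran from 0.00312 to 0.144. Jak2 was called in 4 of 17 alternatives.

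Among the other Stat and Irf genes 1 was called. Of 5 measured Stat genes Stat5a was 1.44-fold lower (adjusted p = 0.0371), a call lost on leaving out any SKP array or sorted replicate 16, 17 or 18 (adjusted p up to 0.102). It was also lost after quantile normalization (adjusted p = 0.0518) and after median centring (adjusted p = 0.0534), when Stat6 was called higher instead. Stat3, which cytokines of the interleukin-6 family activate, had a log2 fold change of -0.0027 (adjusted p = 0.981). Without sorted replicate 2 or 20, 2 were lower, Stat5a and Stat5b. None of 4 other Irf genes was called (limma; Irf5 had an unadjusted p under 0.05). Irf2, which opposes Irf1 at shared sites, differed by 0.15 on the log2 scale (adjusted p = 0.716), and by -0.32 (adjusted p = 0.0180) without sorted replicates 2 and 20. Its level was 7.19 and 7.35 on those arrays, against 8.43 to 8.48 on the other sorted ones, and its adjusted p over all alternatives ran from 0.0180 to 0.993. Irf5, a factor of myeloid and B cells, differed by -0.31 on the log2 scale (adjusted p = 0.0568), and at -0.38 and past the threshold without SKP replicate 3 or 6. Irf8, which myeloid cells need, was at 6.64 ± 0.25 (SD, n = 4) against 6.46 ± 0.07 (n = 5), a log2 difference of 0.18 (adjusted p = 0.261).

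Inhibitors of the pathway had calls in both directions, as did all genes (20.2% higher and 16.9% lower). Their median log2 fold change was 0.11, against 0.07 over all genes. Of 11 measured, 4 were higher, 3 were lower, and Pias3, Ptpn1, Ptpn6 and Ptpn11 were not called (log2 fold changes of 0.06 to 0.12). Usp18, which is induced by type I interferon and blocks its receptor, was 26.1-fold higher, at 10.91 ± 0.12 (SD, n = 4) against 6.20 ± 0.24 (n = 5, adjusted p = 9.31e-09). Socs3, which cytokines acting through Stat3 induce, was 5.68-fold lower, at 7.66 ± 0.12 against 10.17 ± 0.17 (adjusted p = 1.12e-07). As a mean over its probe sets the log2 fold change of Socs3 was -1.77 in place of -2.50. Socs1, an inhibitor of Janus kinases, was 1.25-fold higher (adjusted p = 0.0274), and its call was lost without SKP replicate 3 or 6 or sorted replicate 16, 17 or 18 (adjusted p up to 0.0822). Pias4 (1.22-fold) and the phosphatase Ptpn2 (1.26-fold) were also higher, Ptpn2 losing its call without SKP replicate 4 or 5 or sorted replicate 2, 16, 17 or 18 (adjusted p up to 0.0967). Pias1 (1.85-fold) and Pias2 (1.42-fold) were lower.

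Of 10 measured kinases and adaptors that activate Irf3 and Irf7, 5 were higher, where 20.2% of all genes were. The other 5 (Tbk1, Tank, Azi2, Tbkbp1 and Irak1) were not called, with log2 fold changes of 0.07 to 0.32. Sting1, the adaptor of cytosolic DNA sensing, was 10.8-fold higher (adjusted p = 3.71e-07) and the kinase Ikbke 2.90-fold higher (adjusted p = 1.93e-05). Mavs, the adaptor of RNA sensing, was 1.62-fold higher, Myd88 1.54-fold and Ticam1 1.30-fold, both adaptors of Toll-like receptors. All 18 measured type I interferon targets were higher, with a median log2 fold change of 2.67 and Ifit1 the most at 5.80 (adjusted p = 3.69e-08), a direction already known from these data when the list was drawn up. Of 19 interferon-gamma and Irf1 targets 15 were higher, with a median of 1.77. The GTPase Iigp1 was the most at 5.00 (adjusted p = 2.59e-08), and Irf1 itself was lower. This list too was drawn up with earlier results of these data known, and which interferon its genes answered to was not tested. Ciita, Nlrc5, Ido1 and Nos2 were not called (log2 fold changes of 0.11, 0.23, 0.24 and 0.12). In both groups Ciita, Ido1 and Nos2 had means under the limit for low genes (log2 under 6.31). Nlrc5 had 1.38 (adjusted p = 9.38e-06) as a mean over its probe sets, and its other alternatives gave an adjusted p of up to 0.664. Ido1 was called without SKP replicate 4 (0.33, adjusted p = 0.0261), after median centring and with array weights. Its adjusted p over all alternatives ran from 0.0131 to 0.27.

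**Figure D4:**
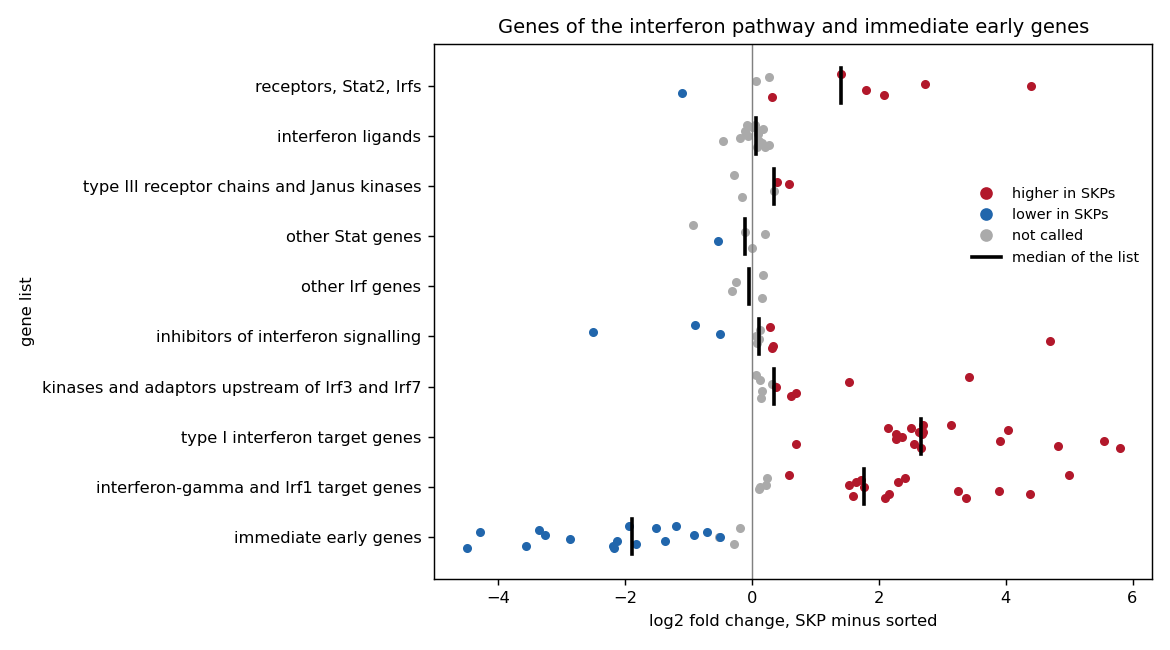
Log2 fold change, SKP minus sorted (horizontal axis), of each measured gene in each list (vertical axis), with red higher, blue lower and grey not called, and a black bar at the list's median. The medians are 0.07 for the ligands, 2.67 for the type I targets and -1.88 for the immediate early genes.

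Genes with the pattern most like 4 of the members were found by the root mean square difference over the 9 arrays, after centring each gene on its own mean. Nearest to Stat2 were the lysosomal protease gene Ctsk (0.14), Fibin (0.17), Eml5 (0.18) and Mx2 (0.185), an antiviral GTPase. Nearest to Irf7 were the lysosomal channel gene Mcoln2 (0.25), Casp1 (0.25), which encodes the protease that activates interleukin-1 beta, Nptx1 (0.26) and Usp18 (0.30). Irf9 had Dok1 (0.09), Fpgt (0.10), Arsj (0.13) and the interferon-induced gene Ifi35 (0.13) nearest. Irf1 had Ccnl1 (0.08), Kif26b (0.10), Sptbn1 (0.11) and Slitrk2 (0.11). Since the measure holds the difference between the groups, a like log2 fold change is fixed by the choice.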

How the data were processed

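The authors deposited log2 RMA levels, 1 per probe set and array; RMA adjusts background, quantile-normalizes arrays and summarises probes. RMA, Affymetrix Expression Console and limma are named in the submitters' processing notes, with versions, settings and genome build not given in the sources used here. Of 35556 probe sets, 21789 had 1 gene symbol in the platform annotation, giving 19938 genes; of several probe sets for a gene, the one brightest on average was used. SKP minus sorted was fitted with limma 3.58.1 in R 4.3.3 (lmFit and eBayes, two-sided, no covariates) over all genes. The fit was tested on simulated data. The members and lists were chosen with earlier results of these data known, so lists are described by counts and medians beside those of all genes. Named list genes are the called gene with the largest change in each direction (the one of highest mean where none was called), a fixed set of pathway genes, and every gene of a count of 5 or fewer. Promoter windows came from RefSeq (GRCm38.p6), where all 9 genes matched by symbol. Alternatives were quantile normalization, median centring, leaving out low genes, averaging probe sets, weighting arrays by quality, a trended and robust eBayes, an adjusted p under 0.01, each array left out, and sorted replicates 2 and 20 left out. Python 3.11.15 and matplotlib 3.10.9 drew the figures.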

Additional observations from a re-analysis of the deposited data

Results flagged for a closer look

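Of 18 groups of values examined (9 genes in 2 groups of arrays), 2 had an array far from the others of its group, by a limit that chance passes in about 1 of 20 groups. Ifngr1 was at 9.62 on sorted replicate 2 and at 9.12 to 9.26 on the other sorted arrays, and Irf3 was at 8.30 on SKP replicate 6 and at 8.43 to 8.45 on the other SKP arrays. Ifngr1 was higher in SKPs with and without sorted replicate 2, and Irf3 was not called with or without SKP replicate 6.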

How the results depend on the processing

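The 9 genes kept their direction under every alternative run, and 6 to 8 of them were called, against 7 as reported; the eighth was Irf3 after quantile normalization and after median centring. Median centring moved the median log2 fold change of all genes from 0.07 to 0.14 and the share of calls that were higher from 54.4% to 64.4%. Over all genes 5166 to 10650 were called, against 7386 as reported. Of 41 genes followed through the alternatives (the 9 members and a set of pathway genes), 25 were called. All 25 kept their direction and 18 their call in every alternative. Other named genes, such as the cell type markers, were not in this count. Quantile normalization gave 1 ligand, Ifna14, and 0 other Stat genes called, and median centring 1 ligand, with Stat6 higher in place of Stat5a lower. Array weights gave 3 ligands, 4 receptor chains and kinases and 2 Stat genes. Leaving out sorted replicates 2 and 20 gave 1 ligand, 4 receptor chains and kinases, 2 Stat genes and 1 other Irf gene. Leaving out the lowest 33.3% of genes gave 1 other Irf gene. An adjusted p under 0.01 gave 1 receptor chain or kinase, 0 Stat genes and 4 inhibitors. With each array left out in turn the counts were 0 to 1 for ligands, 1 to 4 for receptor chains and kinases, 0 to 2 for Stat genes and 0 to 1 for other Irf genes. Irf2, not called as reported, turned to -0.25 with array weights and -0.32 without sorted replicates 2 and 20, was -0.0441 without sorted replicate 2 and -0.0040 without sorted replicate 20, and ran up to 0.28 with each array left out. Myc turned to 0.033 with array weights and 0.13 without sorted replicates 2 and 20. The cause of these changes was not tested. No paired analysis was possible because the groups share no replicate numbers. Signal over background is not known, which limits what can be said of low values such as those of the ligands.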
